A study of Homo sapiens with 6 samples.

Results

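The granulocyte and monocyte genes described here are 10 genes chosen by name: myeloperoxidase (MPO), the azurophil granule serine protease family (ELANE, PRTN3, AZU1), lysozyme (LYZ), the C/EBP factors CEBPA, CEBPB and CEBPE, PU.1 (SPI1) and the receptor of macrophage colony-stimulating factor (CSF1R). Of these, 9 had a value among the 31999 genes of the table, and the level of PRTN3 was not analysed here. RNA was measured in HEL, an established human erythroleukemia cell line, after lentiviral transduction with a short hairpin against TMIGD2 (shTMIGD2, 3 libraries) or with a control hairpin (shCtrl, 3 libraries), and both groups shared the line and its culture medium. TMIGD2 is a surface receptor of the CD28 family. The labels call the libraries of a group biological replicates, and transduced lines were selected with puromycin. Which of the study's TMIGD2 hairpins these libraries carry is not given in the sources used here. The values used are 1 mean per gene over all 6 libraries, so each level below belongs to shCtrl and shTMIGD2 cells together, no spread between libraries is known, and no difference between the 2 hairpins is given, for TMIGD2 or for any other gene.

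Azurophil granules are the first granules that a promyelocyte builds, and they carry myeloperoxidase, which makes hypochlorous acid, together with proteases and lysozyme. C/EBPα and PU.1 are the transcription factors through which progenitors enter the granulocyte and monocyte lineages, C/EBPε acts in later granulocyte maturation, and C/EBPβ is active in monocytes and in stress. CSF1R is the receptor for the growth factors CSF1 and IL34 on monocytes and macrophages. HEL cells belong to the erythroid and megakaryocytic side of blood formation.

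Within the 9 genes with a value, the regulators SPI1, CEBPB and CEBPA and the granule enzyme gene LYZ lay well above 1 CPM (1 count in 1000000 counted reads), CSF1R lay just above it, and MPO, ELANE, AZU1 and CEBPE were each represented by 4 to 23 reads in all 6 libraries together. A mean of more than 1 CPM, a log2 CPM of 0, was reached by 5 of the 9. Over all genes in the table it was reached by 14000 of 31999, or 43.8%. The median of the 9 genes was 0.26 on the log2 CPM scale, that of all genes was -0.97 and that of protein-coding genes was 3.66. So 5 of the 9 lay above the median of all genes but 3 above that of protein-coding genes. In a bulk measurement fewer cells making a transcript and less transcript per cell cannot be told apart.

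The reads behind these levels were estimated from the values themselves, with an assumed prior count. The lowest levels lie in even steps of 0.00526 CPM, taken as the worth of 1 read in the pool of 6 libraries. The assumed prior count (12 in all) was then taken off. Of the 12733 genes with up to 30 reads, 99.9% lay within 0.15 of a whole read. Any whole-number prior would give whole reads, so this does not test the prior. The low read numbers given here shift with it. The genes together held 1.90e+08 reads, a mean of 3.17e+07 per library, and the depth of single libraries is unknown. With this prior the lowest level listed corresponded to 2 reads. Intervals given below are exact 95% Poisson intervals of the pooled reads and cover counting error only.

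**Figure D1:**
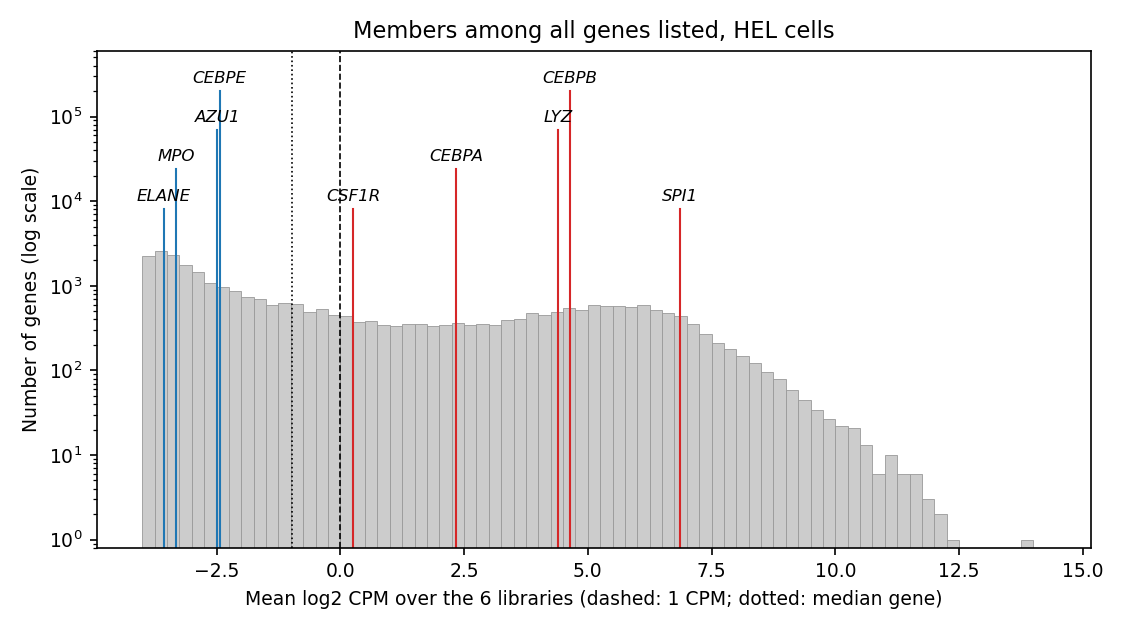
Mean log2 CPM over the 6 libraries on the x axis and the number of genes on a logarithmic y axis, with the 9 genes marked as vertical lines (red above 1 CPM, blue below), whose height has no meaning. ELANE, MPO, AZU1 and CEBPE stand in the peak of genes with few reads, between -3.57 and -2.44, and SPI1 stands at 6.86.

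Sequence around gene starts is shown first for the genes whose RefSeq promoter window (GRCh38.p14), which runs from upstream of a RefSeq start to 50 bases past it, holds a core motif of PU.1 or C/EBP, since these factors are themselves among the genes measured. The motifs searched on both strands were GAGGAA for PU.1, TTGCNNAA for C/EBP and AGATAA for GATA factors, and matches are in capitals. AZU1 lies at chr19:827587-827886 on the plus strand, PRTN3 at chr19:840749-841048 on the plus strand, CEBPE at chr14:23119206-23119505 on the minus strand and the downstream start of CSF1R at chr5:150086505-150086804 on the minus strand. The windows of AZU1, CEBPE and the downstream start of CSF1R lie inside the longer gene spans of the GENCODE annotation given below, whose outermost starts are further upstream.
AZU1: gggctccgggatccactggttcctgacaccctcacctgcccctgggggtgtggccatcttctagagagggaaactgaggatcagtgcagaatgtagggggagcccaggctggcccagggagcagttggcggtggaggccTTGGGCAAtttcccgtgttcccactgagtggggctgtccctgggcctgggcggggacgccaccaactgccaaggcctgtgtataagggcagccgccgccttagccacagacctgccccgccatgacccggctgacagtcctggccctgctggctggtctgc
PRTN3: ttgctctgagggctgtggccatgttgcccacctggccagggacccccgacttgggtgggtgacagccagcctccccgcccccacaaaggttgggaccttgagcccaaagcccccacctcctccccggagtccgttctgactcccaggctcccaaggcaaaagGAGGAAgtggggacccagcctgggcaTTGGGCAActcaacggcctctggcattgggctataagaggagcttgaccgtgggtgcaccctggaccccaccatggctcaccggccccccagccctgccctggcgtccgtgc
CEBPE: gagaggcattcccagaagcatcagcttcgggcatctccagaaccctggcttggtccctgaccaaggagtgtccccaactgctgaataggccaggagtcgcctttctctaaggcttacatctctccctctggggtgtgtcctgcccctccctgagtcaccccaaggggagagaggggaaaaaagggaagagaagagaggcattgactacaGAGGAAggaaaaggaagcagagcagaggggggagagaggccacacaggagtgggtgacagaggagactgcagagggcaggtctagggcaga
CSF1R: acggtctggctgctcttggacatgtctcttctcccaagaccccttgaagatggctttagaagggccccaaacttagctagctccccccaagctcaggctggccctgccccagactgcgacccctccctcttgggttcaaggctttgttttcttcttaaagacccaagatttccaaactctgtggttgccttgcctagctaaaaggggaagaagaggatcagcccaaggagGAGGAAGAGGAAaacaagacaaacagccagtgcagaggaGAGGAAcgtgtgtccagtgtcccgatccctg

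Promoter windows were found for 6 of the 10 genes, 8 windows in all, and not for MPO, ELANE, LYZ and SPI1. The PU.1 core was present in 3 of the 8 windows, those of PRTN3, CEBPE and the downstream start of CSF1R, the last with 3 matches of which 2 are adjacent. Among all 35116 windows 27.9% held it. The C/EBP letters were present in the windows of AZU1 and PRTN3, 2 of 8, and in 10.5% of all windows. The GATA letters were in none of the 8 and in 10.3% of all. The windows of CEBPA and CEBPB held none of the 3 motifs. These are matches of letters and no measure of binding.

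Of the azurophil granule genes, ELANE, AZU1 and MPO were close to the lowest level of the table, whereas LYZ was not. MPO (chromosome 17, 58269855 to 58280935, minus strand, GRCh38) had a mean log2 CPM of -3.32, from 7 reads in the pool (interval 2.81 to 14.4). ELANE, the gene of neutrophil elastase (chromosome 19, 851014 to 856247, plus strand), had a mean log2 CPM of -3.57, from 4 reads (1.09 to 10.2). AZU1, the gene of azurocidin, a relative of elastase without protease activity (chromosome 19, 825097 to 832018, plus strand), had a mean log2 CPM of -2.48, from 22 reads (13.8 to 33.3). PRTN3 (chromosome 19, 840999 to 848175, plus strand), which encodes proteinase 3, had no value, and whether it lay under the lowest level listed was not tested. LYZ (chromosome 12, 69348381 to 69354234, plus strand) had a mean log2 CPM of 4.40, from an estimated 4015 reads (3892 to 4141). Of all genes, 36.1% had a lower mean CPM than AZU1, 22.0% than MPO, 13.5% than ELANE and 77.2% than LYZ. Of protein-coding genes alone, 17.8% were below AZU1, 10.1% below MPO, 5.92% below ELANE and 57.3% below LYZ. Per kilobase of the canonical transcript LYZ reached 14.2 pooled reads per 1000000 (RPM), 111 times the level of AZU1 (95% counting interval 73.3 to 177), 612 times that of ELANE (239.0 to 2249) and 1238 times that of MPO (600.3 to 3081). With 4 and 7 reads, the levels of ELANE and MPO per kilobase, 0.0231 and 0.0114 RPM, did not differ beyond their counting intervals.

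The wider list of azurophil granule proteins includes MPO, ELANE, PRTN3, AZU1 and LYZ, so its division is in part that of the same values. Of the genes it adds that had a value, only PRSS57 exceeded 1 CPM. Of its 11 genes, 8 had a value and 2 of these (25%) exceeded 1 CPM, against 43.8% of all genes. The list median was -2.83 on the log2 CPM scale. The 2 genes were LYZ and PRSS57, which encodes a serine protease of the same granules and had a mean log2 CPM of 4.73. PRSS57 reached 25.4 RPM per kilobase, 199 times AZU1 (131 to 318). With the union of annotated exons as the length, PRSS57 and LYZ were 374 and 189 times AZU1. CTSG, the cathepsin G gene, singled out after its value was seen, followed at -0.92, from 88.7 reads. Per kilobase LYZ was 27.8 times CTSG (22.4 to 34.5), and 35.9 times by the union of exons. The remaining gene values of the list, BPI and RNASE2, rested on 9 and 4 reads.

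Of the genes that process, pack or inhibit granule proteases, those with a value were abundant in the same libraries. All 3 genes of this list with a value, of 5 in the list, exceeded 1 CPM, with a median log2 CPM of 7.09. SERPINA1 and SLPI had no value, so SERPINB1 was the only inhibitor of the list that was measured. SERPINB1, an inhibitor of elastase, cathepsin G and proteinase 3, had a mean log2 CPM of 7.14. CTSC, whose product removes the activation peptide of these proteases, had 7.09, and SRGN, the proteoglycan on which they are stored, had 6.66. Neither enzyme nor proteoglycan is particular to granulocytes.

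Genes for proteins of the later granules were mostly near the floor. Of 11 genes for specific and gelatinase granule proteins, 8 had a value, 2 exceeded 1 CPM and the median log2 CPM was -2.95. LCN2 (lipocalin 2, which binds bacterial siderophores) had a mean log2 CPM of 3.60 and CRISP3 of 2.42. CAMP, the cathelicidin gene, and CHI3L1 were lowest, both at -3.66, from 3 reads each.

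AZU1, PRTN3 and ELANE, the 3 chosen genes of the serine protease family, lie side by side in a stretch of chromosome 19 that also holds genes of much higher level. Among protein-coding genes with a start within 100 kb of AZU1, a window chosen after the values were seen, PTBP1 starts 28.0 kb upstream and had a mean log2 CPM of 9.31. MED16 and R3HDM4 start 68.1 and 88.1 kb downstream and had 6.07 and 6.80. Between them AZU1 and ELANE stood at -2.48 and -3.57. CFD, the complement factor D gene and the next gene after ELANE, had 1.11, and PLPPR3, on the other side of AZU1, had -1.38. Per kilobase of transcript PTBP1 was 1556 times AZU1 (1028 to 2483). KISS1R and MISP, at the ends of the window, had -3.32 and -2.48. The protease gene PRSS57 lies on the same chromosome (685546 to 695498, minus strand), outside the window, and had 4.73. Along the window, among genes with a value, PLPPR3, AZU1 and ELANE formed a run below 1 CPM, followed by CFD, MED16 and R3HDM4 above it. PRTN3, between AZU1 and ELANE, had no value.

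**Figure D2:**
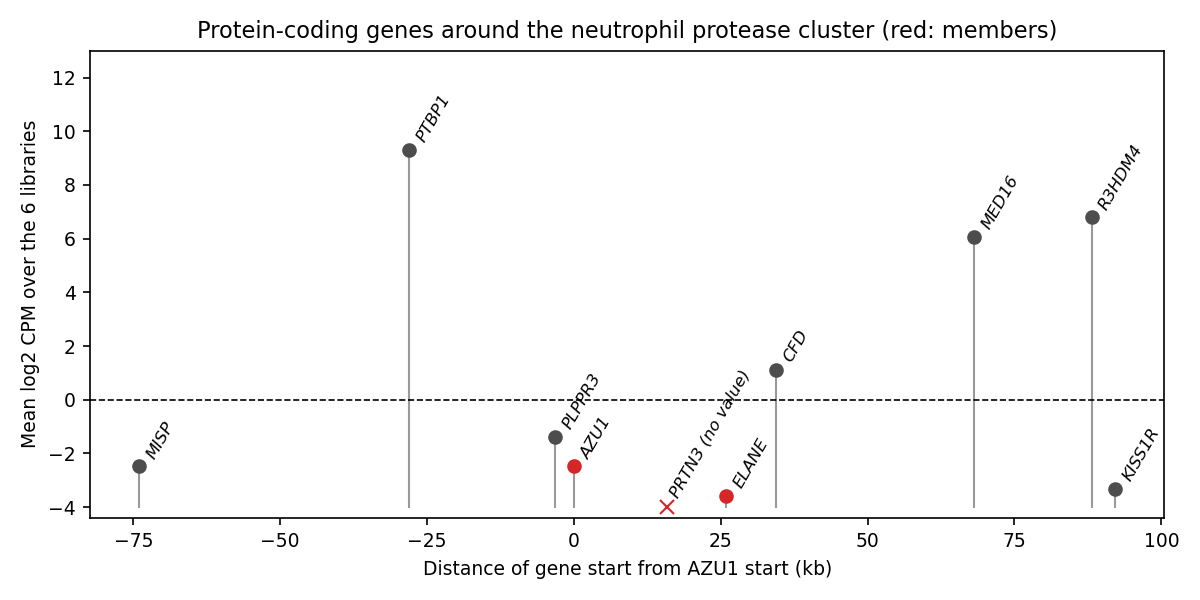
Distance of each protein-coding gene's start from the start of AZU1 in kilobases (x) and mean log2 CPM over the 6 libraries (y), with AZU1 and ELANE in red and PRTN3, which had no value, as a red cross. The dashed line is 1 CPM, and PTBP1 at 9.31 stands 28.0 kb from AZU1 at -2.48.

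Per kilobase CEBPB had the highest level of the 3 C/EBP genes chosen, and CEBPE was near the floor. CEBPB (chromosome 20, 50190830 to 50192668, plus strand) had a mean log2 CPM of 4.64, from an estimated 4722 reads (4588 to 4859). CEBPA (chromosome 19, 33299934 to 33302534, minus strand) had 2.33, from an estimated 947 reads (887 to 1009). CEBPE (chromosome 14, 23117036 to 23120256, minus strand) had -2.44, from 23 reads (14.6 to 34.5). Per kilobase CEBPB was 7.06 times CEBPA (6.58 to 7.57), and CEBPA was 18.8 times CEBPE (12.5 to 29.9). These intervals do not include the variation between libraries.

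The other C/EBP genes lay between CEBPB and CEBPA per kilobase, and none lay between CEBPA and CEBPE. In the family of 6 genes, 5 exceeded 1 CPM and the median log2 CPM was 2.58. CEBPG, which encodes a short factor that lacks an activation domain, had a mean log2 CPM of 5.44. Per kilobase it came out slightly below CEBPB, which was 1.16 times as high (1.12 to 1.20), or 1.26 times by the union of exons. CEBPG starts 71.2 kb from CEBPA, and its level per kilobase was 11.6 RPM against 1.91 for CEBPA. DDIT3, the stress-induced member CHOP, had 2.82 and CEBPD had 1.63. Antisense transcripts overlap 43.9% of the exon bases of CEBPA, 12.6% of those of CEBPB and 34.7% of those of LYZ in the GENCODE annotation. The libraries were made with a directional kit, but whether reads were counted by strand is not given in the sources used here, and without strand the reads of these 3 genes and of their antisense partners cannot be told apart.

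SPI1 had the highest level of the 9 genes, in CPM and per kilobase. It lies on chromosome 11 (47354860 to 47378547, minus strand) and had a mean log2 CPM of 6.86, from an estimated 22069 reads (21779 to 22362), above 93.9% of all genes and 88.5% of protein-coding genes. Per kilobase SPI1 reached 84.4 RPM, 6.26 times CEBPB (6.06 to 6.46) and 44.1 times CEBPA (41.3 to 47.1). With the union of annotated exons as the length, SPI1 was 4.21 times CEBPB and 29.7 times CEBPA, outside these counting intervals. Its close relatives SPIB, which acts in B cells and plasmacytoid dendritic cells, and SPIC, which acts in red pulp macrophages, had -2.11 and -3.76 on the log2 CPM scale, from 32.0 and 2 reads. SPI1 was 1902 times SPIB per kilobase (1348 to 2783), and 1447 times by the union of exons.

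Factors that work with or against C/EBP proteins and PU.1 were for the most part expressed at high levels. Of 12 such genes, 11 had a value (IRF8 had none), 9 exceeded 1 CPM and the median log2 CPM was 7.33. GATA2, a factor of progenitors, megakaryocytes and mast cells, led at 10.14, and RUNX1, which partners PU.1 at myeloid genes, followed at 9.03. EGR2, at -1.92, lay below 1 CPM, and KLF4, a monocyte factor, was lowest at -3.25, from 8 reads. GATA1, the erythroid and megakaryocytic factor that binds PU.1, was singled out after its value was seen. Per kilobase GATA1 was 2.03 times SPI1 (2.00 to 2.06) and GATA2 was 3.95 times SPI1 (3.90 to 4.01). By the union of annotated exons GATA1 was 2.84 times and GATA2 4.04 times SPI1, both outside these counting intervals.

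CSF1R was low while one of its ligands was not. CSF1R (chromosome 5, 150053291 to 150113372, minus strand) had a mean log2 CPM of 0.26, from an estimated 215 reads (187 to 246), which is 1.13 RPM (0.985 to 1.29). CSF1 had 6.32 and IL34 had -3.05 on the log2 CPM scale, the latter from 11 reads. Per kilobase CSF1 was 67.5 times its receptor (59.1 to 77.7). Among 15 monocyte and macrophage markers, CSF1R included, 12 had a value, 3 exceeded 1 CPM and the median log2 CPM was -2.30. The other 2 above 1 CPM were ITGAM, the integrin chain CD11b, at 3.25 and VCAN, a proteoglycan of monocytes, at 2.13. CD68 was at the lowest level of the table with 2 reads, but 81.6% of its exon bases are shared with another gene on the same strand, so its level is uncertain. It was singled out after its value was seen.

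Genes for components of the phagocyte NADPH oxidase, which feeds myeloperoxidase with peroxide, were present at higher levels. Of 6 genes, 5 exceeded 1 CPM and the median log2 CPM was 4.43. RAC2, a small GTPase, had 7.47 and CYBA, the p22phox subunit, had 6.52. NCF1 has near-identical pseudogenes, so its value of 1.47 is uncertain.

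**Figure D3:**
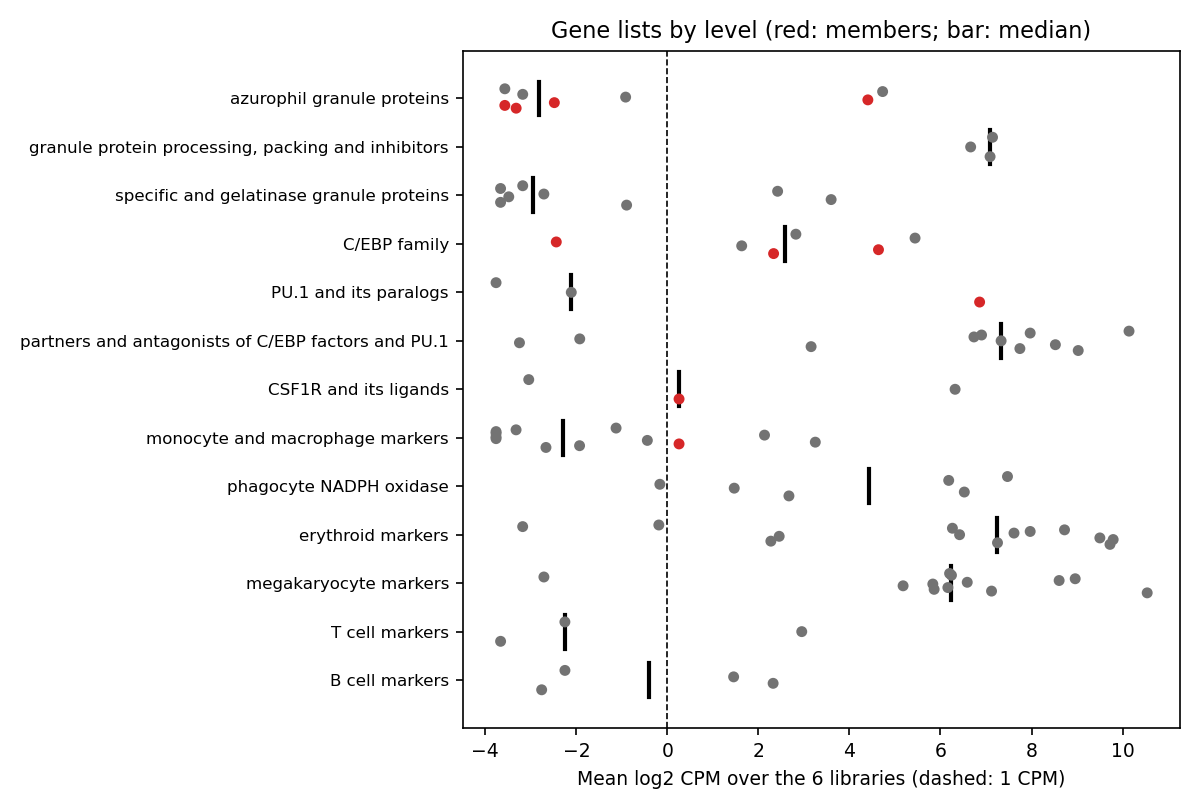
Mean log2 CPM over the 6 libraries (x) of the genes in 13 lists (y), each point 1 gene with a value, red for the 9 genes described and black bars for the list medians. The bars of the granule protein and monocyte lists lie left of the dashed line at 1 CPM, between -2.95 and -2.30, and those of erythroid and megakaryocyte markers lie right of it, at 7.25 and 6.22.

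Scaled for transcript length, the 9 genes ran over a wide range, from 84.4 to 0.0114 RPM per kilobase, in the order SPI1, LYZ, CEBPB, CEBPA, CSF1R, AZU1, CEBPE, ELANE and MPO. LYZ at 14.2 RPM per kilobase (13.7 to 14.6) and CEBPB at 13.5 (13.1 to 13.9) were neighbours whose counting intervals overlapped. The same held for AZU1 at 0.128 (0.0799 to 0.193) and CEBPE at 0.102 (0.0644 to 0.152), and for ELANE and MPO. The other neighbours in the order did not overlap, with CSF1R at 0.296 (0.258 to 0.338) above AZU1 and CEBPA at 1.91 (1.79 to 2.04) above CSF1R. With the union of all annotated exons as the length, LYZ and CEBPB exchanged places, as did AZU1 and CEBPE.

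**Figure D4:**
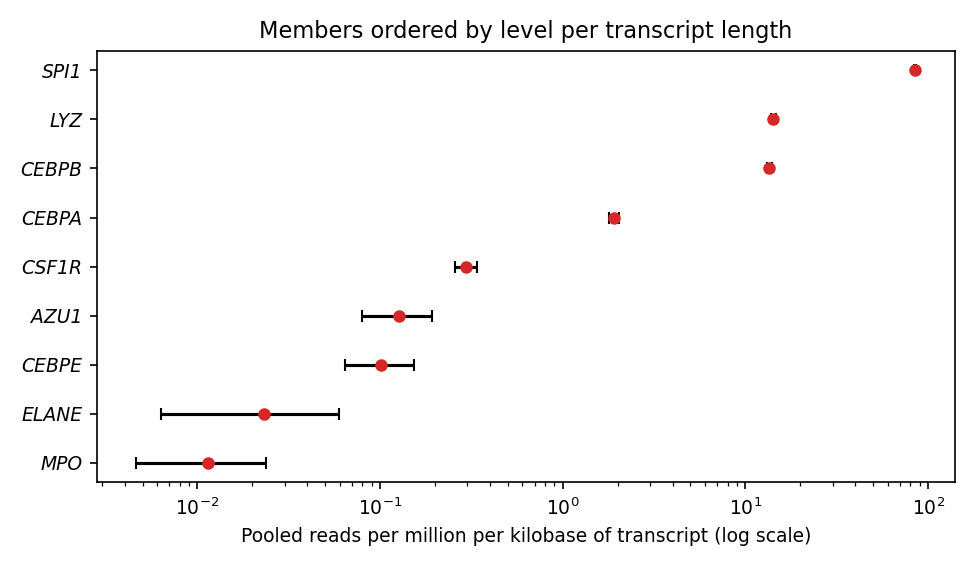
Pooled RPM per kilobase of canonical transcript (x, logarithmic axis) for the 9 genes (y), with exact 95% Poisson intervals as bars, which cover counting error only. SPI1 lies at 84.4 and MPO at 0.0114, and the bars of LYZ and CEBPB, of AZU1 and CEBPE, and of ELANE and MPO overlap.

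Most erythroid and megakaryocyte markers with a value were above 1 CPM in the same libraries. Of 13 erythroid markers 11 exceeded 1 CPM (median log2 CPM 7.25), led by HBA1 at 9.79 and HBG1 at 9.72, with AHSP lowest at -3.18. Near-identical globin copies can share reads. Of 12 megakaryocyte markers with a value, of 13 in the list, 11 exceeded 1 CPM (median 6.22), led by ITGA2B at 10.54 and NFE2 at 8.96, with VWF lowest at -2.71.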

How the data were processed

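Poly(A) RNA libraries of HEL cells (3 shCtrl, 3 shTMIGD2, grouped by their titles) were sequenced. The authors aligned reads to hg38 with STAR 2.6.1b and described counting of fragments per RefSeq gene with HTSeq 0.6.1, with a filter on average read count stated for a DESeq2 comparison. The deposited table has the column names of edgeR, which the submitters' processing notes name without a version. Its mean log2 CPM was computed by the authors over the 6 libraries, and the normalization and gene filter of this table are not given in the sources used here. The authors' own comparison (log2 fold change, F statistic, p-value and adjusted p-value, 4 columns) was not used, and no column gives a value per library. The planned test of shTMIGD2 against shCtrl needs counts per library and was not run.

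Mean CPM was turned into pooled reads by dividing by the CPM step of 1 read and subtracting a prior count of 2 per library, assumed to be the default of the authors' edgeR tool. The step and read numbers were tested on simulated data, where 100% of 11312 genes with up to 30 reads were recovered. The simulation used the same prior count, so the prior itself was not tested. RPM are pooled reads over their sum and were divided by the length of the canonical transcript (GENCODE 44, GRCh38; the authors counted over RefSeq models), to whose symbols 22987 of the gene names matched. Ratios of levels have exact 95% binomial intervals for counting error, which do not cover the choice of transcript length. Shares of genes below a given gene are by mean CPM without length scaling. Python 3.11.15 and scipy 1.17.1 were used. The genes and the 13 lists were chosen with earlier results of these data known. The genes named are the 10 chosen genes, the 2 highest and the lowest of each list, and all C/EBP, PU.1 and CSF1R family genes, except a few that are not reported here.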

Additional observations from a re-analysis of the deposited data

How the results depend on the processing

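The number of chosen genes above 1 CPM was 5. It was also 5 at a line of 0.5 CPM and with the lowest level subtracted, and 4 at 2 CPM, where CSF1R fell below the line. Above the median of all genes lay 5 of the 9. Above the median of protein-coding genes (3.66 on the log2 CPM scale) lay 3, and above the median of genes with a log2 CPM of 0 or more (4.55) lay 2, since these sets hold fewer genes with few reads. With the union of exons as length, 5 of the 9 genes kept their place in the order. Of 13 lists, 7 had a median above 1 CPM, 8 at 0.5 CPM, 6 at 2 CPM, and 13 when the mean of CPM stood in for the median, a measure that few abundant genes can set. With longer or other motif letters, AGGAAGT was in 1 of the 8 promoter windows, TTGCNNCAA in 0 and TGATAA in 0.

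No paired analysis was possible because the table has no value per library. For the same reason the count test, its alternatives (DESeq2, total counts, no filter, each library left out, the replicate number as a block) and any spread between libraries were not run. A mean over both hairpins can hide a difference between them. Depth limits MPO, ELANE, AZU1 and CEBPE, with 4 to 23 reads in 1.90e+08.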

Other observations

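A few lymphoid genes were measured above 1 CPM in these cells. Of 5 T cell markers 3 had a value, with a median log2 CPM of -2.25. CD2, an adhesion receptor of T and NK cells, had 2.95, followed by CD8A at -2.25 and CD3G at -3.66, the last from 3 reads. Of 5 B cell markers 4 had a value, with a median of -0.40. CD79A and CD79B, the signalling chains of the B cell receptor, had 2.32 and 1.46. The part of other cells in these values was not tested.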
